A study of Homo sapiens with 12 samples.

Results

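Ribosomal protein pseudogenes with reads in HCT116 cells were taken from a table of estimated counts for 57134 genes. HCT116 is a human colon carcinoma cell line. The members were chosen by these counts: they are the rows whose symbol has the form of a ribosomal protein pseudogene, whose GENCODE v29 type is a pseudogene, and whose estimated counts summed to at least 100 over all 12 libraries. The name pattern took 1148 rows, of which 1144 are pseudogenes, and 8 of these reached the minimum: RPS2P5, RPSAP52, RPS2P46 and RPS28P7 of the small subunit, and RPL9P9, RPL23AP82, RPL21P16 and RPL32P3 of the large subunit. The other 4 rows are the protein-coding genes RPLP0, RPLP1, RPLP2 and RPS19BP1, which also have 100 counts or more and were left out. Each member was set against its parent, the functional gene that its name gives. The 8 members name 7 parents, because RPS2P5 and RPS2P46 share RPS2.

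All 12 libraries hold total RNA amplified with MATQ-seq, a protocol that also copies RNAs lacking a poly(A) tail. Before sequencing, 6 of them went through scDASH, in which Cas9 cuts sequence made from ribosomal RNA (rRNA). The groups were DASHed mini-bulk (2 libraries), untreated mini-bulk (2 libraries), DASHed single cells sorted by FACS (4 libraries) and untreated single cells sorted in the same way (4 libraries). Neither the number of cells in a mini-bulk library nor separate cultures are named, so a p-value here reflects the spread among the mini-bulk samples alone, and that spread may be technical. Estimated counts summed to 837614 and 1087711 in DASHed mini-bulk, against 5803180 and 6026584 in untreated mini-bulk, and to 1018874 to 1573651 in DASHed cells, against 5545355 to 6008358 in untreated cells. Because a single-cell library holds 1 cell, the cells are given as values with no test. In a mini-bulk library, fewer cells with an RNA and less of that RNA per cell cannot be told apart. Of 8 colon epithelial markers, all had counts in at least 1 library and their summed level was 166 to 4264 CPM (a unit in which every library has the same total). The 8 markers of other cell types summed to 0 to 30.5 CPM, and 4 of them were at 0 in every library.

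A ribosome joins a small and a large subunit, each built from rRNA and many proteins, and the messenger RNAs (mRNAs) of these proteins are among the most abundant in growing cells. Copies of such mRNAs have been written back into the genome many times by the reverse transcriptase of LINE-1 elements, which left intronless, or processed, pseudogenes scattered over all chromosomes. Most have no promoter of their own, and a young copy can be almost letter for letter the mRNA it came from. Reads that match both then have to be divided between them by the quantification program, here kallisto, so that the value of one depends on the value of the other.

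How far a member can be told from its parent is visible in the sequence, given here for 4 of the 8. Each stretch of 90 bases below is the ungapped one with the most bases at which the member differs from its parent. It is thus not typical of the whole alignment, and where no base differs it is the start of the coding sequence. The stretches are in the direction of the transcript, from GENCODE v29 on GRCh38, in lower case with the mismatched bases in capitals.
RPL9P9: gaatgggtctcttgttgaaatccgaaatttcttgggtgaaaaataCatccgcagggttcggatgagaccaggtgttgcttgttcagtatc
RPL9: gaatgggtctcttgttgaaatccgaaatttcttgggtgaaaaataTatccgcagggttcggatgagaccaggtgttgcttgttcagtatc
RPL23AP82: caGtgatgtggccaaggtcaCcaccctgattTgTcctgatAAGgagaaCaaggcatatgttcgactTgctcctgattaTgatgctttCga
RPL23A: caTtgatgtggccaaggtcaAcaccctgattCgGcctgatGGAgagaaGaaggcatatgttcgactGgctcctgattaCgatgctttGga
RPL21P16 and RPL21: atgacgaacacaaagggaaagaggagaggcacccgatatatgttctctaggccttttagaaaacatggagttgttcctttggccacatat
RPS28P7 and RPS28: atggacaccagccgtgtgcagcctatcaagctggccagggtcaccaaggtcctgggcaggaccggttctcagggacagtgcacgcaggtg
The RPL9P9 stretch, at chr15:82372479-82372568 (minus strand), holds the single mismatch of that pseudogene to the RPL9 coding sequence, within coding bases 321 to 410. RPL23AP82 is shown at chr22:50799007-50799096 (plus strand), against coding bases 354 to 443 of RPL23A, with 11 mismatches. The RPL21P16 stretch, at chr10:120355094-120355183 (minus strand), and the RPS28P7 stretch, at chr11:82689559-82689648 (plus strand), are each identical to coding bases 1 to 90 of the parent.

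The 8 members differ in how closely they match the parent. Over the aligned coding sequence, RPL21P16 (483 bases) and RPS28P7 (210 bases) were 100% identical to RPL21 and RPS28. RPL9P9 had 1 mismatch in 579 bases (99.8% identity), RPS2P5 had 11 in 879 (98.7%), and RPS2P46 had 11 in 882 plus 1 extra base (98.8%). RPSAP52 had 69 mismatches in 881 aligned bases (92.2%) and RPL23AP82 had 39 in 467 (91.6%). RPL32P3 aligned with only 68.6% of the RPL32 coding sequence, with 18 mismatches in 280 bases (93.6%). The reading frame of the parent was still open to its end in RPS2P5 (293 codons), RPL9P9 (192), RPL21P16 (160) and RPS28P7 (69). It was cut short in the others, after 88 of 293 codons in RPS2P46, 42 of 295 in RPSAP52, 86 of 156 in RPL23AP82 and 55 of 135 in RPL32P3. An open frame in the sequence says nothing of whether a protein is made.

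Cut into words of 31 bases, the transcripts differ more sharply. All words of RPL21P16 and RPS28P7 also occur in a transcript of the parent gene, so that no read of that length would belong to either pseudogene alone. RPL9P9 shared 89.8% of its words with RPL9 and had 6.16% that occur in no other gene of GENCODE v29. RPS2P5 shared 68.0% with RPS2 and RPS2P46 shared 63.0%, while 11.7% and 22.7% of their words occur in no other gene. By contrast, 88.4% of the words of RPSAP52 and 96.2% of those of RPL32P3 occur in no other gene. RPL23AP82 shared 0.60% of its words with RPL23A, but 37.4% with the pseudogene RPL23AP7 and 28.7% with the pseudogene CENPBD1P1, and 35.6% of its words occur in no other gene.

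**Figure D1:**
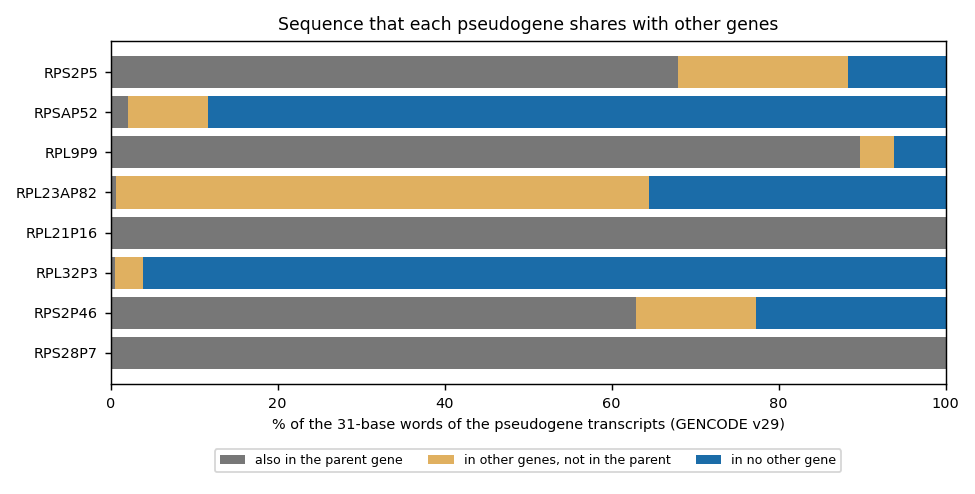
Share of the 31-base words of each pseudogene's transcripts, in percent, that also occur in the parent gene (grey), in other genes but not the parent (tan) or in no other gene (blue), in GENCODE v29. RPL21P16 and RPS28P7 have no word of their own, whereas 88.4% of the words of RPSAP52 and 96.2% of those of RPL32P3 occur in no other gene.

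The positions and annotation of the members also differ. RPS2P5 (chr12:118246084-118246962, plus strand), RPS2P46 (chr17:19445970-19446852, minus strand), RPL21P16 (chr10:120354701-120355183, minus strand) and RPS28P7 (chr11:82689559-82689768, plus strand) are annotated as processed pseudogenes with 1 exon. RPSAP52 (chr12:65758020-65826997, minus strand) and RPL9P9 (chr15:82372196-82372912, minus strand) are annotated as transcribed processed pseudogenes. The label of the group as processed pseudogenes does not hold for RPL23AP82 (chr22:50756948-50801309, plus strand) and RPL32P3 (chr3:129382922-129399655, minus strand), which GENCODE lists as transcribed unprocessed pseudogenes. RPS2P5 lies inside TAOK3, RPL9P9 inside the pseudogene UBE2Q2P2 and RPS28P7 inside the non-coding gene MIR4300HG, each on the opposite strand and outside their exons. RPS2P46 lies inside the long non-coding gene AC004448.2 on the same strand, outside its exons. RPSAP52 overlaps HMGA2 on the opposite strand, with no shared exon, whereas exons of RPL23AP82 overlap those of RABL2B and exons of RPL32P3 overlap those of the pseudogene AL449212.1, also on the opposite strand. Whether the counting used strand is not given in the sources used here. The values of RPL23AP82 and RPL32P3 may therefore hold reads of the partner. Words were compared without regard to strand, and 96.2% of those of RPL32P3 but 35.6% of those of RPL23AP82 occur in no other gene. The part of the partners in the counts was not tested. RPL21P16 overlaps no other gene.

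Counts of ribosomal protein pseudogenes were concentrated in few rows. Of the 1144 rows, 315 had a count in any library, 54 had at least 10 in all and 14 had at least 50. The 8 members held 76.5% of the 8733 counts of all 1144, and RPS2P5 alone held 57.4% of the members' 6677 counts. Just inside the minimum were RPL32P3 with 160 counts, RPS2P46 with 114 and RPS28P7 with 107, and just outside were RPSAP6 with 90.2, RPL23P4 with 86.0 and RPL13P5 with 69.3. The minimum is a sum over libraries of unequal depth, so it favours rows that are high in the deeper untreated libraries. On the 6 DASHed libraries alone 3 members would have reached 100 counts, RPS2P5, RPSAP52 and RPL23AP82. On the 6 untreated libraries alone 5 would have, the same 3 with RPL9P9 (77.1 counts in the DASHed libraries, against 690 in the untreated ones) and RPL21P16 (12.3 in the DASHed libraries, against 282 in the untreated ones). Parents with more pseudogene rows did not always have more rows with counts. Of 91 pseudogene rows of RPL23A 17 had a count, of 66 of RPL21 10 had, of 74 of RPSA 28 had, of 20 of RPS2 15 had, of 17 of RPL9 9 had, of 12 of RPL32 3 had, and of 3 of RPS28 1 had.

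Per kilobase of transcript and averaged over the 12 libraries, RPS2P5 stood at 183 CPM, RPSAP52 at 36.4, RPL9P9 at 23.7, RPL23AP82 at 17.1, RPL21P16 at 9.76, RPS28P7 at 9.57, RPL32P3 at 8.87 and RPS2P46 at 4.74. Each parent was higher on this scale, at 1543 CPM per kilobase for RPS2, 361 for RPSA, 81.4 for RPL9, 65.0 for RPL32, 54.4 for RPS28, 24.5 for RPL23A and 24.1 for RPL21. The length used is the median over a gene's annotated transcripts, so the scale depends on the annotation. Before it, RPL23A and RPL23AP82 were close, at 14.6 and 14.3 CPM, with lengths of 595 and 835 bases. RPS28 was divided by 1119 bases, although its coding sequence has 210. RPS2P5 was the highest member in every library on this scale, and the ranges over the 12 libraries overlapped between all later neighbours in the order.

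**Figure D2:**
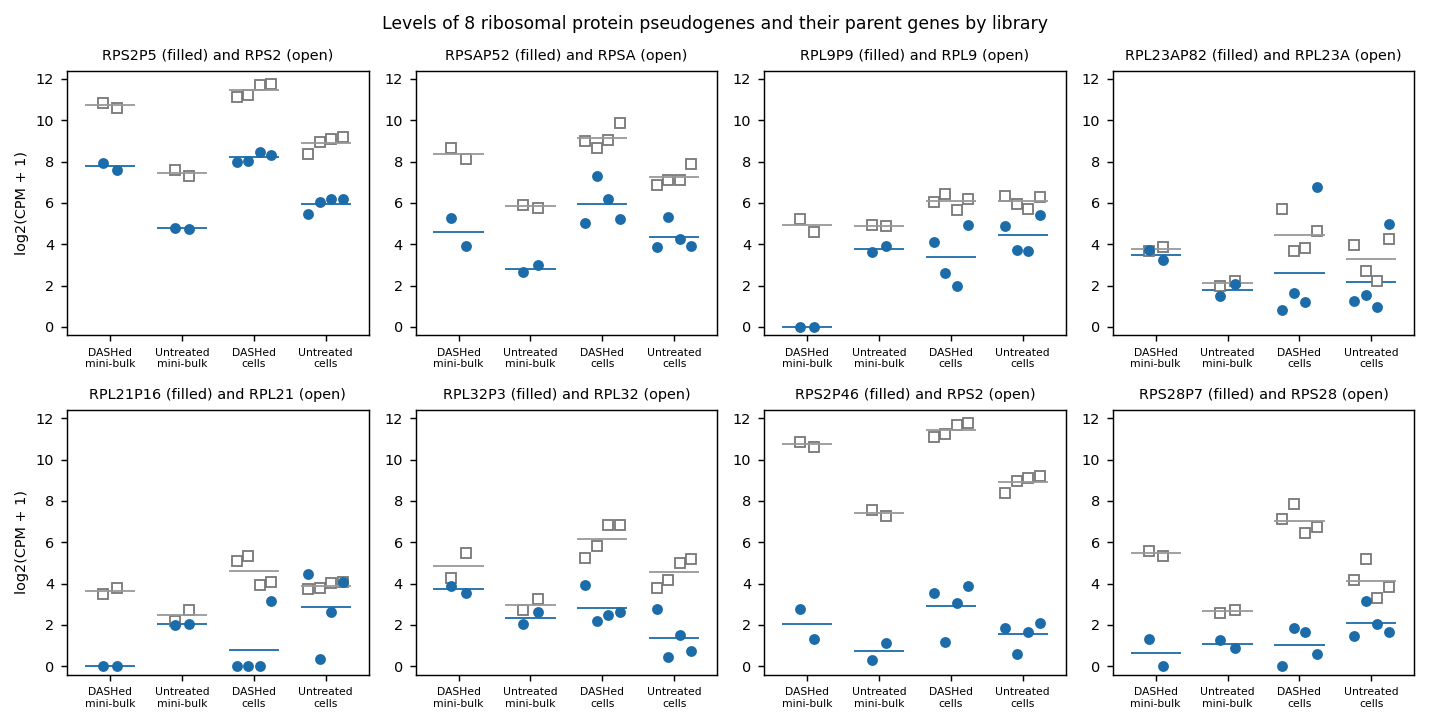
Level of each pseudogene (filled circles) and its parent (open squares) in every library, as log2(CPM + 1), with a horizontal line at each group's mean on that scale. RPL9P9 and RPL21P16 are at 0 in both DASHed mini-bulk libraries, and RPL23AP82 is far higher in cell number 4 than in the other cells, after depletion (107 CPM) and without it (30.7 CPM).

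The first comparison asks how the members' share of a library changed when rRNA was removed. Together the members took 0.0271% ± 0.00641 of the counts of DASHed mini-bulk libraries, against 0.00568% ± 0.000517 of untreated ones (SD, n = 2 each), a ratio of 4.78. The 2 groups were apart, with p = 0.333 in an exact two-sided permutation test, which cannot go lower for 2 against 2 libraries. In the single cells the share was 0.0328 to 0.0522% after depletion, against 0.0115 to 0.0180% without it, and the means had a ratio of 3.20. The ratio depends on the total it is taken over. When rRNA genes, and 4 long intergenic genes that lie inside 18S rRNA genes, were left out of the totals, the ratio was 1.29 in mini-bulk (exact permutation p = 0.667) and 1.05 in single cells. The number of ribosomal protein pseudogenes with any count was 64 and 44 in DASHed mini-bulk, against 120 and 104 in untreated mini-bulk, and 26 to 44 in DASHed cells, against 59 to 74 in untreated cells. DASHed libraries are also the shallower ones, and the part of depth in these numbers was not tested.

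The level of the members relative to the parents is given as a description, because RPL9P9, RPL21P16 and RPS28P7 owe their place mostly to untreated libraries, so the rule itself favours a lower ratio after depletion. Summed member counts over summed parent counts gave a log2 ratio of −3.01 ± 0.15 in DASHed mini-bulk, against −2.29 ± 0.27 in untreated mini-bulk (SD, n = 2 each), a difference of −0.72. The ratio was −3.21 to −2.88 in the 4 DASHed cells, against −2.79 to −2.30 in the 4 untreated cells, a difference of means of −0.59. Neither input showed an overlap between groups. RPS2P5 and RPS2 carry most counts of these sums, and without RPS2P5, RPS2P46 and RPS2, a choice made after the data were seen, the difference was −1.48 in mini-bulk and −0.90 in single cells. The pairs differ in this, and each is described in turn.

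Single genes were tested in mini-bulk with edgeR's quasi-likelihood test, in which libraries are scaled by TMM factors that set the bulk of genes level, so that a fold is relative to most other genes. Across the 10083 genes tested, 9.9% were higher and 19.8% were lower in DASHed libraries at an adjusted p of 0.05, that is 998 and 1999 genes, or 29.7% in either direction. With library totals in place of TMM factors the counts were 6718 higher and 138 lower. Of the 8 members 6 passed the filter on low counts, of which 1 (RPS2P5) was higher, 2 (RPL9P9 and RPL21P16) were lower and 3 passed in neither direction. The minimum sum favours members that are high in untreated libraries, as above, so this split is given as a description. RPS2P46 and RPS28P7 had too few counts to be tested. Among the 7 parents RPS2 was higher, RPL9 was lower and 5 did not pass. The median log2 fold change was −0.20 for the 6 members and 0.09 for the 7 parents, against 0.03 for all genes tested. Of the 79 cytosolic ribosomal protein genes, all of which were tested, 18 were higher and 17 lower, with a median of 0.13. Of 94 other processed pseudogenes with at least 100 summed counts, 45 were tested, of which 2 were higher and 8 lower, with a median of −0.22.

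**Figure D3:**
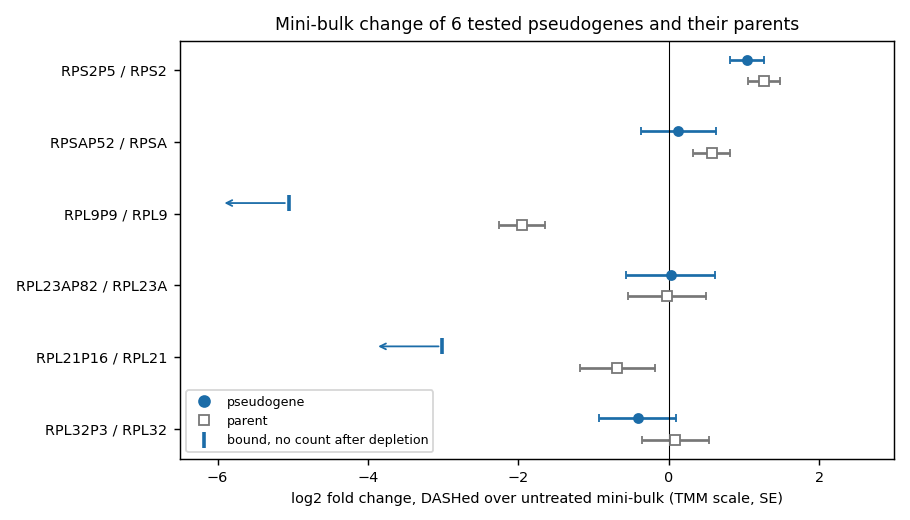
Log2 fold change, DASHed over untreated mini-bulk on the TMM scale, of the 6 tested pseudogenes (filled circles) and their parents (open squares), with bars of 1 standard error. RPL9P9 and RPL21P16 had no count after depletion and are drawn as the bound that 3 counts over the group give, with an arrow toward lower values.

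RPS2P5 rose in mini-bulk, as did its parent RPS2, a small-subunit protein near the path by which mRNA enters the ribosome. It had 267 and 160 counts in DASHed mini-bulk, against 161 and 149 in untreated mini-bulk. In CPM these are 246 and 191 against 26.7 and 25.7, and the groups are well apart. A higher CPM without overlap was seen in 69.1% of the 11519 genes compared. On the TMM scale RPS2P5 was 2.06-fold higher (log2 1.04, SE 0.22, adjusted p = 0.00952, edgeR) and RPS2 was 2.40-fold higher (log2 1.26, SE 0.21, adjusted p = 0.00342, edgeR). RPS2 itself had 2007 and 1307 counts in DASHed mini-bulk, against 1147 and 904 in untreated mini-bulk. The transcripts of RPS2P5 are 61.2% and those of RPS2 59.7% G and C, against a median of 51.4% over the genes tested, and with a correction for this base composition the changes were 0.31 (adjusted p = 0.592) and 0.56 (adjusted p = 0.217) on the log2 scale in edgeR. Without the second untreated library RPS2P5 also lost its call (log2 0.64, adjusted p = 0.186, edgeR).

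The single cells gave RPS2P5 337, 267, 542 and 507 counts after depletion, against 252, 357, 432 and 404 without it, in the order of the cell numbers. That is 255 to 352 CPM against 43.7 to 71.9 CPM, and the groups did not overlap. Such a higher level without overlap was seen in 7.45% of the 13469 genes with at least 20 counts, and the opposite in 0.921%. The ratio of summed CPM lay 1.11 above the median of all genes on the log2 scale, that median being a 2.20-fold higher CPM. RPS2P5 was the single member whose single-cell groups did not overlap in CPM. Its parent RPS2 did not overlap either, at 2206 to 3499 CPM against 331 to 581 CPM, and lay 1.44 above that median. Among the other parents RPL32, RPS28 and RPSA were also higher without overlap, whereas RPL9, RPL21 and RPL23A overlapped. The values of RPS2P5 are kallisto's estimate, since only 11.7% of its words occur in no other gene.

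As a share of RPS2P5 plus RPS2, the pseudogene took 11.3% ± 0.59 of counts in DASHed mini-bulk, against 13.2% ± 1.32 in untreated mini-bulk (SD, n = 2 each, exact permutation p = 0.333). It took 8.44 to 10.3% in the DASHed cells, against 10.9 to 11.7% in the untreated cells. The share was lower after depletion in all 4 pairs of same-numbered cells. Summed over cells it was 9.39% (exact Clopper-Pearson 95% interval 8.96 to 9.83%), against 11.4% (10.8 to 11.96%). Intervals here and below cover counting error only, and the counts they rest on are estimates that kallisto divided between similar transcripts. Shares of this kind were tested in mini-bulk for all 8 pairs, and none could give a p under 0.333. The p-values of RPL9P9, RPL21P16 and RPS28P7 are not given, because the rule favours a lower share for them.

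RPS2P46, the second copy of RPS2, had 6.28 and 1.26 counts in DASHed mini-bulk, against 1.45 and 7 in untreated mini-bulk. In the cells it had 14.1, 1.31, 11.3 and 21.7 counts after depletion, against 14.7, 2.83, 12.9 and 18.8 without it. The same-numbered cells resemble each other, with number 2 the lowest in both groups. Its share of RPS2P46 plus RPS2 was 0.204% ± 0.153 in DASHed mini-bulk, against 0.448% ± 0.454 in untreated mini-bulk (SD, n = 2 each, exact permutation p = 0.667), which is within the spread of the libraries. In single cells it was 0.0538 to 0.479%, against 0.104 to 0.763%, and lower after depletion in 4 of 4 pairs. RPS2P46 shares 50.9% of its words with RPS2P5, so the 2 copies are not independent readings.

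RPS28P7 is a copy of RPS28, a small-subunit protein near the path by which mRNA leaves the ribosome, and its sequence is contained in the parent's. It had 1.59 and 0 counts in DASHed mini-bulk, against 8.65 and 4.94 in untreated mini-bulk. RPS28 had 50.7 and 33.0 counts in DASHed mini-bulk, against 30.4 and 32.2 in untreated mini-bulk. On the TMM scale the parent had a log2 change of 1.03 (SE 0.36, adjusted p = 0.0583, edgeR) and did not pass, whereas with RLE size factors, among other settings, it was called higher. In CPM it averaged 43.0 ± 5.13 in DASHed mini-bulk and 5.30 ± 0.37 in untreated mini-bulk (SD, n = 2 each). The share of the pseudogene was 1.52% ± 2.14 in DASHed mini-bulk, against 17.7% ± 6.27 in untreated mini-bulk (SD, n = 2 each). It is a description, since RPS28P7 had 8.44 counts in the 6 DASHed libraries, against 99.0 in the 6 untreated ones, and so owes its place to the untreated libraries.

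The cells showed the same order for RPS28P7. It had 0, 2.67, 3.38 and 0.804 counts after depletion, against 10.2, 44.2, 18.8 and 12.2 without it. RPS28 had 182, 233, 135 and 166 counts after depletion, against 96.8, 198, 54.2 and 75.8 without it. The pseudogene's share was 0 to 2.45% in DASHed cells, against 9.55 to 25.7% in untreated cells, with no overlap and lower in 4 of 4 pairs. Summed over cells, 7 of 723 counts (0.968%, interval 0.390 to 1.98%) went to RPS28P7 after depletion, against 85 of 510 (16.7%, interval 13.5 to 20.2%) without it. RPS28P7 is 61.9% G and C, close to RPS2P5. Since every 31-base word of RPS28P7 is also in RPS28, the division between them rests on the estimate and not on reads that only the pseudogene could give.

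RPSAP52 stands apart from the copies of RPS2 and RPS28, because most of its words are its own. It is a non-coding transcript that starts inside HMGA2 on the other strand, HMGA2 being the gene of a chromatin protein of growing and tumour cells, and its parent RPSA encodes a small-subunit protein also known as the laminin receptor. All 12 of its values were whole numbers (within 0.001), which no other member showed. It had 41 and 12 counts in DASHed mini-bulk, against 32 and 40 in untreated mini-bulk. It did not pass (log2 0.13, SE 0.49, adjusted p = 0.857, edgeR). RPSA had a log2 change of 0.57 (SE 0.25, adjusted p = 0.108, edgeR), with 437 and 230 counts, against 360 and 303. It did not pass here, with RLE size factors or with the GC correction (log2 0.91, adjusted p = 0.0553, edgeR). With DESeq2 (log2 0.73, adjusted p = 0.0442), among other settings, it was called higher.

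In the cells RPSAP52 had 42, 160, 112 and 57 counts after depletion, against 79, 214, 110 and 80 without it. Cell number 2 was the highest in both groups, at 157 CPM after depletion and 38.6 CPM without it. The share of RPSAP52 plus RPSA ran between 3.73 and 28.3% in DASHed cells and between 5.70 and 21.8% in untreated cells, lower after depletion in 2 of 4 pairs. In mini-bulk this share was 6.77% ± 2.56, against 9.91% ± 2.47 (SD, n = 2 each, exact permutation p = 0.667). In neither input did this share differ beyond the spread of the libraries. HMGA2, on the other strand, had 46.6 and 59.7 CPM in DASHed mini-bulk, against 57.8 and 74.9 CPM in untreated mini-bulk, and 50.2 to 136 CPM in DASHed cells, against 56.1 to 77.8 CPM in untreated cells. These levels overlapped between groups in both inputs, whereas those of RPSAP52 in mini-bulk, 37.7 and 14.3 CPM against 5.31 and 6.89 CPM, did not. A higher CPM without overlap in DASHed mini-bulk was seen in 69.1% of the 11519 genes compared, so RPSAP52 is like most genes in this.

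RPL9P9 is the nearly exact copy of RPL9, a large-subunit protein. It had no count in either DASHed mini-bulk library, against 68.9 and 82.4 counts in the untreated ones. With 3 counts over the group as the floor, RPL9P9 was at least 33.3-fold lower relative to most genes (TMM scale) and at least 8.21-fold lower in CPM. These bounds are a description with no test, since RPL9P9 reached the minimum sum through the untreated libraries. They hold for kallisto's estimate, since only 6.16% of the words of RPL9P9 occur in no other gene. The parent RPL9 was also lower on the TMM scale, by 3.87-fold (log2 −1.95, SE 0.31, adjusted p = 0.00262, edgeR), with 40.0 and 19.3 counts in DASHed mini-bulk, against 177 and 165 in untreated mini-bulk. On the scale of library totals alone RPL9 had a log2 change of 0.07 (adjusted p = 0.883, edgeR). Its CPM groups overlapped, whereas those of RPL9P9 did not, a lower CPM without overlap being seen in 8.26% of the 11519 genes compared. With the correction for base composition RPL9 stood at −0.54 (adjusted p = 0.399, edgeR). RPL9P9 is 43.0% and RPL9 42.5% G and C.

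The share of RPL9P9 in the pair was also lower after depletion, again as a description. In DASHed mini-bulk 0 of 59 counts of the pair went to RPL9P9 (interval 0 to 6.06%), against 30.7% ± 3.79 in untreated mini-bulk (SD, n = 2). The cells had 21.3, 5.11, 4.54 and 46.2 counts of RPL9P9 after depletion, against 164, 67.6, 71.7 and 235 without it. Number 4 was the highest and number 1 the second in both groups. The share was 5.6 to 28.9% in DASHed cells, against 16.7 to 34.9% in untreated cells, so the ranges overlapped, and it was lower after depletion in 4 of 4 pairs. Summed over cells it was 17.5% (interval 14.0 to 21.3%), against 25.8% (interval 23.9 to 27.7%). The ratio of summed CPM of RPL9P9 lay 1.83 below the median of all genes on the log2 scale.

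RPL21P16, a letter-for-letter copy of the RPL21 coding sequence, also had no count in DASHed mini-bulk. RPL21 is a large-subunit protein. The pseudogene had no count in either DASHed library, against 18.2 and 18.5 counts in the untreated ones. It was at least 8.07-fold lower relative to most genes (TMM scale) and at least 1.99-fold lower in CPM, given with no test because it too reached the minimum sum through the untreated libraries. The parent RPL21, with 11 and 10.8 counts in DASHed mini-bulk, against 21.9 and 32.5 in untreated mini-bulk, did not pass (log2 −0.69, SE 0.50, adjusted p = 0.311, edgeR), and its log2 change was 1.31 by library totals alone. Without either of the untreated libraries RPL21P16 fell under the filter on low counts.

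In the cells RPL21P16 had 0, 0, 0 and 12.3 counts after depletion, against 122, 1.58, 30.8 and 91.0 without it. Number 4 was the one DASHed cell with a count, and among untreated cells number 1 was the highest and number 2 the lowest. RPL21 was steadier, with 43.4, 40.0, 22.0 and 24.6 counts after depletion, against 70.3, 70.4, 91.2 and 90.3 without it. The pseudogene took 12 of 142 counts of the pair over the DASHed cells (8.45%, interval 4.44 to 14.3%), against 245 of 567 over the untreated cells (43.2%, interval 39.1 to 47.4%), and its share was lower in 4 of 4 pairs. In DASHed mini-bulk its share was 0 of 22 counts (interval 0 to 15.4%), against 40.8% ± 6.48 in untreated mini-bulk (SD, n = 2). As with RPS28P7, none of its 31-base words is its own. RPL21P16 is 43.3% G and C, close to RPL9P9.

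RPL23AP82 carries the name of RPL23A, a protein at the exit of the tunnel through which the growing chain leaves the large subunit, but shares few words with it. It had 13.4 and 7 counts in DASHed mini-bulk, against 11.1 and 18.5 in untreated mini-bulk, and did not pass (log2 0.02, SE 0.59, adjusted p = 0.978, edgeR). RPL23A, with 13.0 and 11.6 against 18 and 21.5 counts, did not either (log2 −0.03, SE 0.52, adjusted p = 0.972, edgeR). The share was 44.3% ± 9.29 against 42.2% ± 5.68 (SD, n = 2 each, exact permutation p = 1.0).

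Among the cells RPL23AP82 was far higher in number 4 than in the others. Cell number 4 had 168 counts after depletion and 174 without it, whereas the other 3 numbers had 1 to 2.14 counts after depletion and 5.84 to 10.4 without it. Without number 4 the mean was 1.39 ± 0.68 CPM in DASHed cells, against 1.42 ± 0.45 CPM in untreated cells (SD, n = 3 each), a ratio of 0.978, whereas all 4 gave 27.7 ± 52.7 CPM, against 8.74 ± 14.7 CPM, a ratio of 3.17. CENPBD1P1, which shares 28.7% of the words of RPL23AP82, was also highest in number 4, with 185 counts after depletion and 114 without it, against 0 to 13.0 and 2 to 16.5 in the other cells of the same groups. RABL2B, which overlaps it on the other strand, had 140 and 133 counts in number 4, against 20.3 to 70.0 in the other DASHed cells and 49.5 to 142 in the other untreated cells. The part of these neighbours in the RPL23AP82 counts was not tested. RPL23A did not single out number 4, with 38.2 counts there after depletion and 103 without it, against 12 to 68.5 and 22.0 to 84.2 in the others.

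RPL32P3, named for the large-subunit protein RPL32, had 15 and 9 counts in DASHed mini-bulk, against 18.9 and 30 in untreated mini-bulk. Its log2 change was −0.42 (SE 0.51, adjusted p = 0.55, edgeR) on the TMM scale and 1.57 (adjusted p = 0.0258, edgeR) by library totals alone, so its direction depends on the scale. RPL32 had 20 and 36 counts, against 33.7 and 49, with a log2 change of 0.09 (SE 0.44, adjusted p = 0.892, edgeR). The share of RPL32P3 in the pair was 31.4% ± 16.2 in DASHed mini-bulk, against 37.0% ± 1.47 in untreated mini-bulk (SD, n = 2 each, exact permutation p = 1.0).

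The cells gave RPL32P3 18.9, 3.58, 7 and 8.05 counts after depletion, against 33, 2.02, 11 and 3.91 without it. Number 1 was the highest in both groups. In that cell RPL32P3 took 28.03% of the pair after depletion and 30.8% without it, against 3.90 to 6.02% and 1.88 to 5.61% in the other cells of those groups. RPL32 was at its lowest in the same number, with 48.5 counts after depletion and 74.0 without it.

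**Figure D4:**
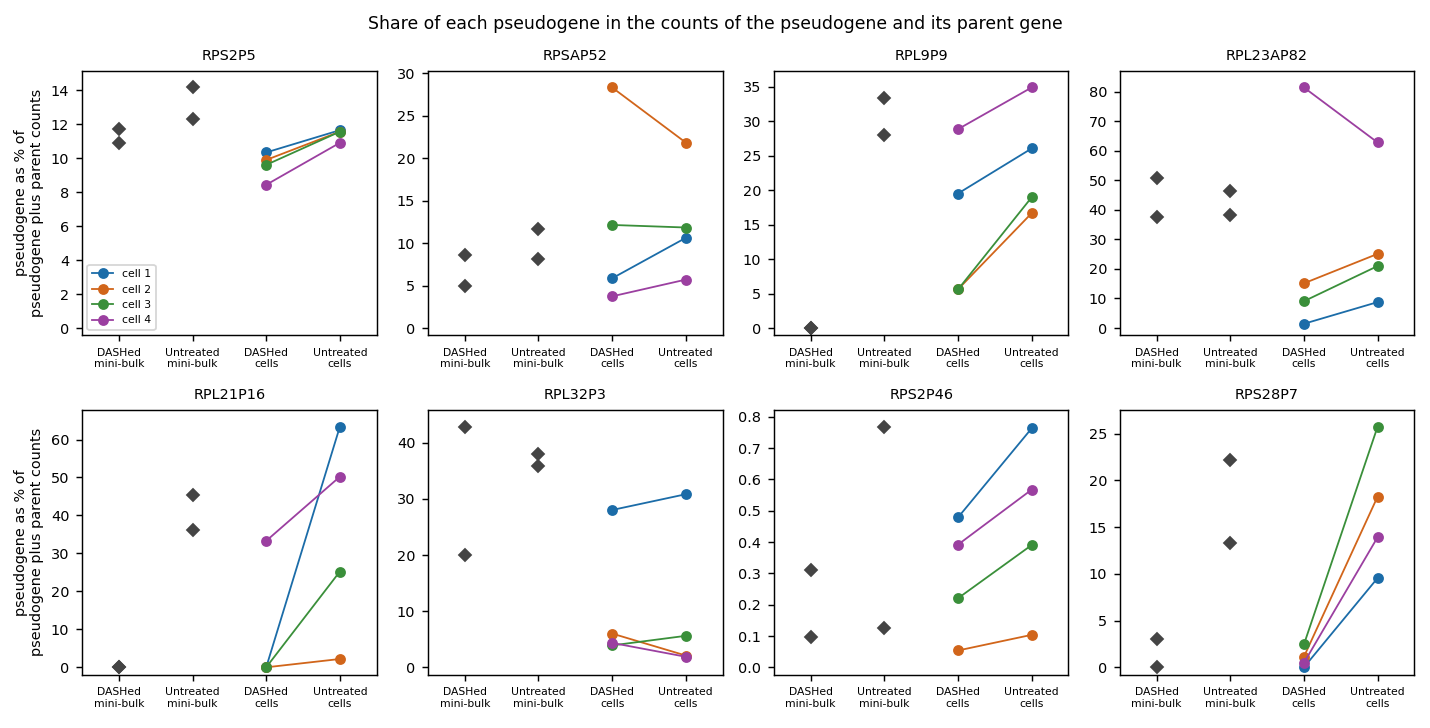
Each pseudogene as a percentage of the counts of the pseudogene plus its parent, by library, with a separate scale for each panel. Diamonds are mini-bulk libraries and coloured circles are cells, with a line joining cells that share a number. The share is lower after depletion in all 4 pairs of cells for RPS28P7, RPL9P9, RPL21P16, RPS2P5 and RPS2P46. It is lower in 3 of 4 for RPL23AP82 and in 2 of 4 for RPSAP52 and RPL32P3. For RPS28P7, RPL9P9 and RPL21P16 a lower share is favoured by the rule that chose the members.

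Across the 8 pairs, the share of the pseudogene was lower after depletion in 4 of 4 pairs of cells for RPS2P5, RPS2P46, RPL9P9, RPL21P16 and RPS28P7. It was lower in 3 of 4 pairs for RPL23AP82 and in 2 of 4 for RPSAP52 and RPL32P3. The rule favours a lower share for RPL9P9, RPL21P16 and RPS28P7, so these counts of pairs support no pattern over the members. The mini-bulk groups of this share did not overlap for RPS2P5, RPL9P9, RPL21P16 and RPS28P7 and overlapped for the other 4. The rule favours this for RPL9P9, RPL21P16 and RPS28P7, and the measure needs a pair, so no share over all genes stands beside it. With 2 against 2 libraries, even groups fully apart give p = 0.333 in the exact permutation test, so this split is a description only. In CPM, 5 members were higher in both DASHed mini-bulk libraries than in both untreated ones, as were 69.1% of the 11519 genes compared, and 2 were lower, as were 8.26%. RPS28P7 overlapped.

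The cells of the same number resembled each other for most members, as the paragraphs above show. Over 4316 genes, deviations from the group means correlated at 0.94 to 0.96 between same-numbered DASHed and untreated cells. It is not stated whether a number marks a single cell, and DASHed and untreated libraries may therefore share cells.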

How the data were processed

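For 12 libraries the authors deposited estimated counts by gene in 1 table, with no scaling to depth. Per the submitters' processing notes, kallisto 0.46.2 was used. Build, annotation and strand handling are not given in the sources. In each library 30.7 to 55.0% of nonzero values are fractional, since kallisto divides reads that fit several transcripts among them. Estimated counts were rounded to whole numbers for tests.

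Of 57134 gene names, 57079 were found in GENCODE v29 (GRCh38), which gave types, coordinates and transcripts. Transcripts were cut into 31-base words, and members were aligned to the coding transcript of the parent that matched best (Biopython 1.88). The mini-bulk contrast was tested in edgeR 4.0.16 (under R 4.3.3) by quasi-likelihood. TMM factors were used (DASHed 1.96 and 2.09, untreated 0.442 and 0.553), with the default filter on low counts and Benjamini-Hochberg adjustment over all genes tested at 0.05, and checked on simulated counts. DESeq2 1.42.0, other scalings and filters, a GC correction and leaving out libraries were alternatives. Shares were compared with exact two-sided permutation tests. A fold against a group without counts uses a floor of 3 counts over that group. Same-numbered cells deviated together (correlation 0.94 to 0.96) and different numbers did not (−0.42 to −0.20), so cells were treated as paired by number, on the data alone. CPM are counts scaled to a common library total, and log2(CPM + 1) was used for plots and single-cell ratios.

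The members, gene lists and tests were chosen with earlier results of these data known. The named genes are all members, their parents and the 3 rows on each side of the minimum. CENPBD1P1, RABL2B and HMGA2 were named after their values were seen. The sequences of the other 4 members are not reported here.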

Additional observations from a re-analysis of the deposited data

Results flagged for a closer look

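Of 46 groups of 4 cells examined (CPM of the members and parents, and each member's share of the pair), 8 held a cell far from the other 3, measured as its gap to the nearest cell over the whole range. The cutoff was 0.829, the critical value of Dixon's test for 4 values. Its chance rate holds for independent, normally distributed values. These groups hold sparse counts and use the same genes and cell numbers more than once. The number of groups set apart can therefore not be compared with that rate.

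RPL23AP82 stood apart in cell number 4 in both groups, at 107 CPM after depletion, against 0.754 to 2.10 CPM in the other 3 DASHed cells, and at 30.7 CPM without it, against 0.972 to 1.87 CPM in the other 3 untreated cells. CENPBD1P1, with which it shares words, was also highest in that number. RPL21P16 stood apart in DASHed cell number 4, at 7.80 CPM and 33.3% of the pair, where the other 3 DASHed cells had no count. RPL32P3 stood apart in DASHed cell number 1, at 14.3 CPM, against 3.52 to 5.12 CPM in the others, and its share of the pair was apart in number 1 in both groups, at 28.03% after depletion and 30.8% without it. The share of RPS2P5 was apart in untreated cell number 4, at 10.9%, against 11.57 to 11.65% in the other untreated cells, a gap of under 1 percentage point. No cause of these values was tested.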

How the results depend on the processing

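In mini-bulk the summed share (ratio 4.78) and the log2 ratio of members to parents (−0.72) kept their direction in every alternative run. Without single libraries they ran over 3.99 to 5.58 and −0.91 to −0.53. But the share ratio was 1.29 without rRNA and the 4 intergenic genes (exact permutation p = 0.667), and 1.73 without RPS2P5. The log2 ratio was −2.48 as a median over members. In single cells, leaving out single cells gave 2.98 to 3.597 for the share and −0.68 to −0.52 for the log2 ratio. The single-cell share ratio was 1.05 without rRNA and the 4 intergenic genes, and 1.86 without RPS2P5. The single-cell log2 ratio was −1.46 as a median over members and −0.90 without RPS2P5, RPS2P46 and RPS2. Members called higher (1, RPS2P5, of 6 tested) numbered 4 by library totals, where 6718 of all 10083 genes tested were called higher. They numbered 0 with a GC correction, where 161 genes were, and 0 with the replicate block and GC correction, where 857 were. Without untreated replicate 2 the log2 change of RPS2P5 was 0.64, against 1.04 with all libraries. Members called lower (2, RPL9P9 and RPL21P16) reached the minimum sum through the untreated libraries. The rule favours a lower call for them, so their calls are a description and no support for a change. They numbered 1 with DESeq2, which gave RPL21P16 no adjusted p, and 1 with a mean of at least 10 counts, a filter that removes RPL21P16. With a GC correction they numbered 1, and the fitted change of RPL21P16 stayed near its value (−6.53 against −6.92, both dependent on the prior count). Parents called higher (1, RPS2) numbered 2 by RLE size factors, 5 by library totals, 2 with DESeq2, 2 with no filter, 2 with a mean of at least 10 counts, 3 with the replicate block, 0 with a GC correction, 2 with the block and GC correction, 2 without rRNA, and 1 to 3 without single libraries, the 3 without DASHed replicate 2. Parents called lower (1, RPL9) numbered 0 by library totals, 0 with a GC correction and 0 with the block and GC correction. By library totals alone, where the median of all genes is 2.04 on the log2 scale against 0.03 with TMM, the sign turned for RPL32P3 (1.57), RPL23A (1.99) and RPL9 (0.069), each called on at least one of the scales, and for RPL21 (1.31), called on neither.

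Over all genes 998 of 10083 were called higher and 1999 lower. By library totals they numbered 6718 and 138, and by RLE size factors 1167 and 1942. With DESeq2 they were 754 and 1036 of 27180, and with no filter 1165 and 2412 of 27180. A mean of at least 10 counts gave 1302 and 2023 of 8941, and leaving out rRNA gave 1242 and 2103 of 9196. The replicate block gave 2359 and 3044, a GC correction 161 and 223, and both together 857 and 898. The calls of members and parents are to be read beside these totals, as a description. Same-numbered mini-bulk libraries correlated at 0.60, but 2 pairs do not show that the numbers pair them, and the block left the calls of the members as they were. Paired, the share ratio was 3.21 over the cells and 4.73 over mini-bulk libraries. Where a cause is not named above, it was not tested. Depth limits RPS2P46 and RPS28P7, which the default filter left out in mini-bulk and which were not called with no filter, and 3 counts in a DASHed library are 1.91 to 3.58 CPM, against 0.498 to 0.541 CPM in an untreated one.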
